A study of Drosophila melanogaster with 12 samples.

Results

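Neuropeptide genes encode the precursors of short signalling peptides that neurons and endocrine cells of the head store in dense-core granules and release. The set described here holds 10 such genes of Drosophila melanogaster: Pdf, NPF, sNPF, Dh44, Mip, Tk, AstA, amn, Crz and Dsk. They were found as probe sets that the platform annotation pairs with one of these gene symbols and no other, and 7 of the 10 had such a probe set, 1 each, out of 10843 genes with a single-symbol probe set. No probe set of this kind was found for Tk, AstA or Dsk, which are not analysed here. Of the 7, 6 were bright enough to test, with a mean Signal of at least 128.3 over the arrays, and amn was not.

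RNA of adult heads was hybridised to 12 Affymetrix arrays, 2 for each sex of the lines BG02514, BG02257 and Canton S B. BG02514 and BG02257 are insertion lines from a collection made with the gene-trap transposon P{GT1}, and both were set against the wild-type Canton S B. For neither line do the sources used here give an insertion site, and how alike the 3 lines are elsewhere in the genome was not tested. The 3 lines were raised together at 25 °C and 70% humidity with 12 h of light a day, and each sample pooled heads of 100 flies aged 5 to 7 days. No line had a treatment, and no allele beyond the line names is given in the labels. Female heads were thus compared with male heads, BG02514 and BG02257 each with Canton S B, and BG02514 with BG02257. Both BG02257 male arrays are numbered 1 in the labels and are called 1a and 1b here. They were taken as separate samples. All p-values measure only the spread between these samples, which may be partly technical, since the labels call the samples replicate groups of flies and say no more.

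In the fly, a neuropeptide precursor is cut by convertases and amidated before release, and most mature peptides then act on G protein-coupled receptors of other cells. Many of these genes are used by few neurons each. Pdf is the output signal of a group of clock neurons. NPF and sNPF act in feeding and in other motivated behaviours, and some NPF neurons of the brain are found only in males. Crz encodes corazonin, a relative of gonadotropin-releasing hormone with roles in stress and metabolism, and Dh44 encodes a diuretic hormone related to corticotropin-releasing factor. Mip peptides, also called allatostatin B, bind the sex peptide receptor. The amn product is needed for memory, Tk encodes tachykinins, AstA encodes allatostatin A peptides and Dsk encodes the cholecystokinin-like sulfakinins.

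Signal is a relative intensity on a linear scale, and levels of different probe sets cannot be set against each other. The head samples carried neuronal and eye markers on every array: elav, which encodes a neuronal RNA-binding protein, had a Signal of 178.6 to 681.3, and the summed Signal of 11 photoreceptor markers was 140358 to 183075. The yolk protein gene Yp1, a female marker, had 77354.7 to 102730.8 on the female arrays, 171.7 to 496.1 on 5 male arrays and 6747.4 on BG02257 male 1a. That array therefore stood apart from the other males, and it also had the lowest elav. Most differences below that use it are also given without it, while spreads, intervals, list medians and differences within BG02257 are given with it only. Median Signal ranged from 182.9 to 206.1 over the 12 arrays.

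For none of the 6 measurable neuropeptide genes did a difference between the sexes or between any pair of lines pass the test. In the limma fit over 8380 probe sets with Benjamini-Hochberg adjustment, 0 of 6 had an adjusted p under 0.05 in the comparison of females with males, where 2.84% of all probe sets were called. The same count, 0 of 6, was found for BG02514 against Canton S B (0.179% of all called), for BG02257 against Canton S B (0.0955%) and for BG02514 against BG02257 (0.334%). At an unadjusted p under 0.05 the members numbered 1, 1, 0 and 2 in these 4 comparisons, where 15%, 8.02%, 4.01% and 9.99% of all probe sets passed. The two-way analysis of variance on linear Signal that the labels describe also called 0 of 6 in each, with 0, 0, 0 and 1 members at an unadjusted p under 0.05. In whole heads, fewer cells of a type and less RNA per cell cannot be told apart.

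**Figure D1:**
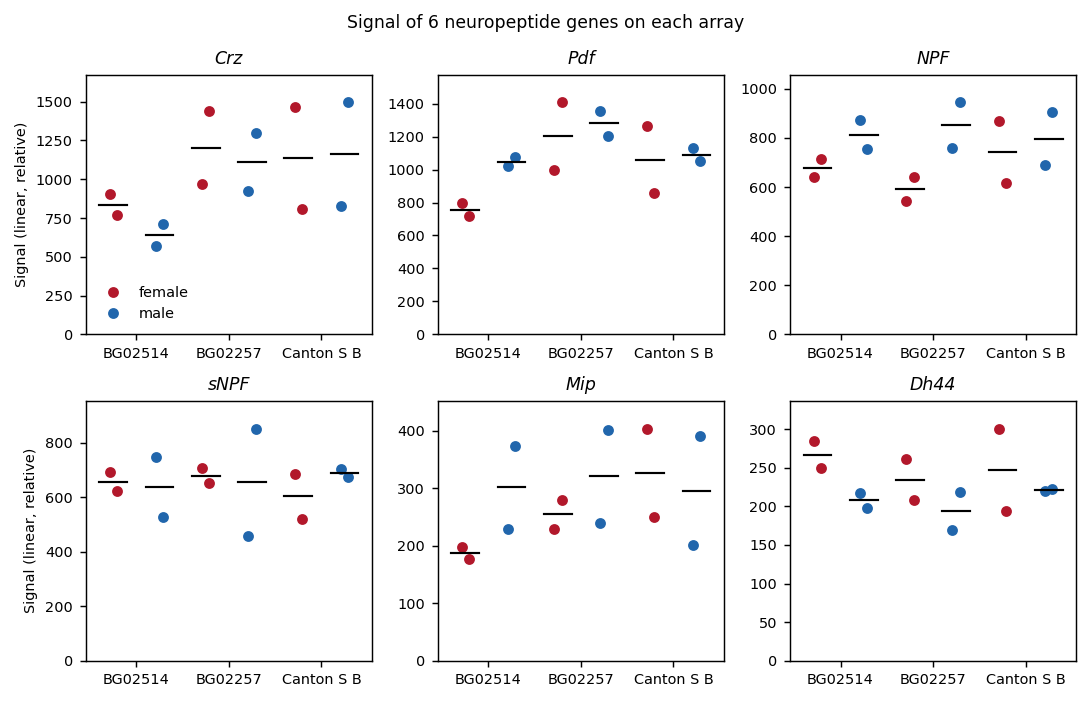
Signal (linear, relative intensity, axis from 0) of the 6 tested neuropeptide genes on each of the 12 arrays, by line and sex. Points are single arrays, red for females and blue for males, and black lines are means of 2 arrays. For Crz, all 4 BG02514 arrays lie below the 4 BG02257 arrays, and the 2 arrays of each sex of Canton S B lie far apart.

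The largest line differences were those of Crz in BG02514. Its Signal in BG02514 was 904.0 and 767.0 in females and 571.7 and 712.6 in males. In BG02257 it was 967.9 and 1437.4 in females and 923.8 and 1300.6 in males, and in Canton S B 1465.6 and 806.4 in females and 829.2 and 1494.9 in males. All 4 BG02514 arrays lay below all 4 BG02257 arrays, which held for 3.21% of all probe sets and for 1 of the 6 members, while BG02514 and Canton S B overlapped. Crz averaged 738.8 ± 137 in BG02514, 1157 ± 251 in BG02257 and 1149 ± 383 in Canton S B (SD, n = 4 each). The log2 difference of BG02514 from BG02257 was -0.64 (SE 0.25, 95% interval -1.19 to -0.10, a ratio of 0.641), with an unadjusted limma p of 0.0252 and an adjusted p of 0.422. Against Canton S B it was -0.59 (SE 0.25, interval -1.14 to -0.05, a ratio of 0.663), with an adjusted p of 0.551. These comparisons share the BG02514 arrays and are not independent. Without Canton S B female 1, BG02514 differed from Canton S B by -0.38, and without Canton S B female 2 by -0.81. Without BG02257 male 1a the difference from BG02257 was -0.76. Over all the settings of the closing section, which include each array left out, it ran from -0.86 to -0.50.

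Neuron markers, gut markers and the 3'/5' ratios of control transcripts also varied over these arrays. The 14 tested neuron markers had a median log2 difference of 0.12 between BG02514 and BG02257, with 10 above 0, and of 0.18 between BG02514 and Canton S B, with 9 above 0. Their summed Signal was 16854 to 21373 in BG02514, 16333 to 21585 in BG02257 and 15057 to 23381 in Canton S B. On BG02257 male 1a the median log2 deviation of these markers from their means over the arrays was -0.38. It was 0.04 to 0.13 on the other BG02257 arrays, -0.04 to 0.24 in BG02514 and -0.31 to 0.32 in Canton S B. The part of neuron content in the Crz values was not tested beyond the covariate given below. The 13 tested gut markers were all above 0 for BG02514 against Canton S B, with a median of 0.54, and 9 of 13 were above 0 for BG02514 against BG02257, with a median of 0.58. None was called, and their summed Signal was 5866 to 10023 in BG02514, 2667 to 7451 in BG02257 and 2328 to 9011 in Canton S B. Of all 8380 tested probe sets, 3974 were above 0 for BG02514 against Canton S B and 4007 for BG02514 against BG02257. The 3'/5' Signal ratio of GAPDH, a sign of RNA integrity, was 3.89 to 4.87 in BG02514, 4.14 to 4.98 in BG02257 and 3.70 to 6.16 in Canton S B. The highest 2 GAPDH ratios, 6.16 and 5.89, were those of Canton S B female 1 and male 2, the arrays with the highest Crz of all 12. Over all arrays the ratios were 1.35 to 3.29 for ACTIN and 1.96 to 3.12 for eIF-4a. Canton S B female 1 and male 2 had 2.01 and 3.29 for ACTIN, and 3.12 and 2.66 for eIF-4a. BG02514 male 1, the array with the lowest Crz, had 4.87 for GAPDH, 3.22 for ACTIN and 3.02 for eIF-4a. With the neuron marker median as a covariate the Crz difference of BG02514 from BG02257 was -0.86 (adjusted p = 0.0868), and with the GAPDH ratio as a covariate -0.50 (adjusted p = 0.39). The part of the gut markers in the Crz values was not tested, and that of RNA quality was not tested beyond this covariate.

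BG02514 also had the lowest mean of Pdf. BG02514 had a Signal of 796.3 and 715.2 in females and 1021.6 and 1073.7 in males. BG02257 had 998.8 and 1407.0 in females and 1354.7 and 1205.6 in males, and Canton S B had 1261.4 and 857.5 in females and 1127.5 and 1051.7 in males. BG02257 was highest by its mean and BG02514 lowest, but each pair of lines overlapped. The means were 901.7 ± 173 in BG02514, 1242 ± 183 in BG02257 and 1075 ± 169 in Canton S B (SD, n = 4 each). The log2 difference of BG02514 from BG02257 was -0.47 (SE 0.16, interval -0.82 to -0.12, a ratio of 0.722), with a limma p of 0.0139 and an adjusted p of 0.358. Without BG02257 male 1a it was -0.43, and over all the settings of the closing section it ran from -0.59 to -0.35. Canton S B lay between them by its mean, and neither difference from it passed the test: BG02514 minus Canton S B was -0.26 (interval -0.61 to 0.09, adjusted p = 0.76) and BG02257 minus Canton S B was 0.21 (interval -0.14 to 0.56, adjusted p = 0.999). Without Canton S B female 1 these values were -0.12 and 0.35, and without Canton S B female 2 they were -0.40 and 0.07. BG02257 minus Canton S B was 0.09 without BG02257 female 2, 0.33 without BG02257 female 1 and 0.17 without BG02257 male 1a. The 11 tested clock genes, some of which are used in the Pdf neurons, had a median log2 difference of -0.12 between BG02514 and BG02257, with 3 above 0 and 8 below, and none was called. Over all tested probe sets the median was -0.01, with 4007 above 0 and 4373 below.

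NPF, sNPF and Dh44 had line means that lay within their spread. NPF averaged 745.5 ± 97.3 in BG02514, 722.7 ± 172 in BG02257 and 769.6 ± 137 in Canton S B, and sNPF averaged 647.5 ± 94.5, 666.8 ± 163 and 645.9 ± 84.0 in the same lines (SD, n = 4 each). Dh44 averaged 237.3 ± 38.1 in BG02514, 214.2 ± 37.5 in BG02257 and 234.2 ± 46.1 in Canton S B. Their largest log2 difference between any pair of lines was 0.15, that of Dh44 between BG02514 and BG02257 (interval -0.29 to 0.59). It was 0.06 without BG02257 male 1a, 0.07 without BG02257 female 2, 0.23 without BG02257 female 1 and 0.24 without BG02257 male 1b. The intervals still allowed sizeable changes: that of sNPF for BG02257 against Canton S B ran from -0.43 to 0.47, around a value of 0.02 that was 0.24 without BG02257 male 1a. With a wider spread, Mip averaged 244.8 ± 89.3 in BG02514, 288.1 ± 79.2 in BG02257 and 311.5 ± 102 in Canton S B, and its intervals were the widest of the set, -0.97 to 0.27 for BG02514 against Canton S B around a value of -0.35, which ran from -0.59 without Canton S B male 1 to -0.11 without Canton S B male 2. These spreads show how far the arrays could have resolved a change, and do not show that the lines were alike.

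**Figure D2:**
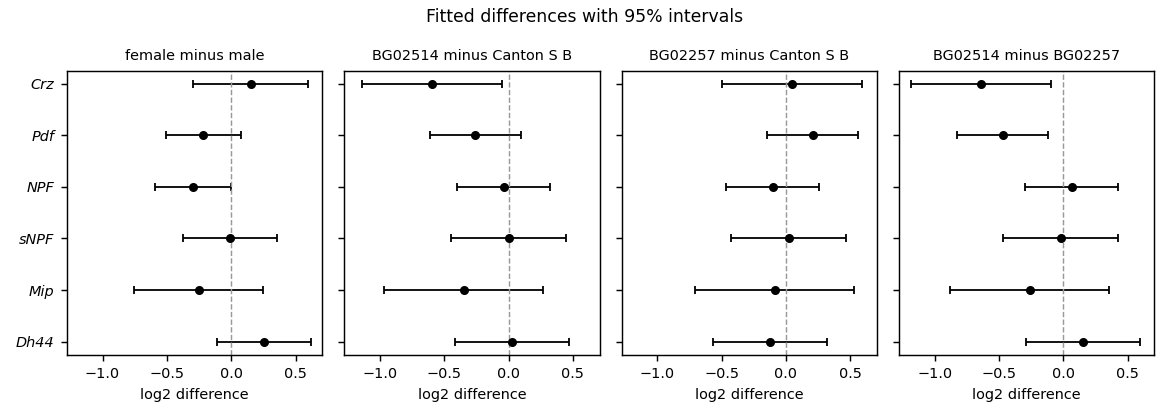
Log2 differences in Signal of the 6 tested neuropeptide genes in 4 comparisons (points, limma fit over 12 arrays) with 95% intervals (bars), and a dashed line at 0. The intervals of Crz in BG02514 against Canton S B, of Crz and Pdf in BG02514 against BG02257, and of NPF in females against males do not include 0, and no adjusted p was under 0.05.

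Between the sexes, NPF had the smallest adjusted p of the set. Its Signal in females was 639.8 and 715.4 in BG02514, 544.9 and 642.6 in BG02257 and 866.8 and 618.1 in Canton S B. In males it was 873.1 and 753.7 in BG02514, 758.9 and 944.3 in BG02257 and 690.0 and 903.4 in Canton S B. The female mean was the lower in 3 of 3 lines, and BG02514 female 2 and Canton S B female 1 were the female arrays that reached into the male range. NPF averaged 671.3 ± 110 in females and 820.6 ± 100 in males (± SD of 6 arrays each). On the log2 scale the difference was -0.30 (SE 0.13, interval -0.59 to -0.0022, a ratio of 0.815) with a limma p of 0.0486 and an adjusted p of 0.328. Without BG02257 male 1a the difference was -0.35 (adjusted p = 0.271), and without any one array it lay between -0.38 and -0.21. The 14 neuron markers had a median log2 difference of -0.11 between females and males, 6 above 0 and 8 below, and their summed Signal was 15057 to 18120 in females and 16333 to 23381 in males. With the neuron marker median as a covariate the NPF difference was -0.18 (adjusted p = 0.541). The 10 glia markers also had a median of -0.23, with 3 above 0. The medians were above 0 for gut markers (0.42, 9 of 13 above 0), muscle markers (0.32, 8 of 9) and hemocyte markers (0.31, 10 of 11). Of all 8380 tested probe sets 4205 were above 0, with a median of 0.001. The part of these marker lists in the NPF values was not tested.

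Pdf was the lower in females by its mean in 3 of 3 lines and Dh44 the higher in 3 of 3 lines, both within the spread. Pdf averaged 1006 ± 274 in females and 1139 ± 124 in males (± SD of 6 arrays each). Its log2 difference was -0.22 (SE 0.13, interval -0.50 to 0.07, adjusted p = 0.483), and it ran from -0.31 without Canton S B female 1 to -0.12 without Canton S B female 2, with -0.19 without BG02257 male 1a. In females the Dh44 Signal was 284.6 and 249.6 in BG02514, 261.1 and 207.9 in BG02257 and 300.6 and 194.2 in Canton S B. In males it was 217.8 and 197.4 in BG02514, 169.8 and 218.2 in BG02257 and 219.3 and 222.7 in Canton S B. The highest 4 arrays were female and the lowest was BG02257 male 1a, with overlap between the sexes. Dh44 averaged 249.7 ± 41.9 in females and 207.5 ± 20.6 in males, a log2 difference of 0.26 (SE 0.16, interval -0.11 to 0.62, adjusted p = 0.51), and without BG02257 male 1a it was 0.20 (adjusted p = 0.638). Without Canton S B female 1 it was 0.15.

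Crz, Mip and sNPF had no common order of the sexes. Crz averaged 1058 ± 313 in females and 972.1 ± 355 in males, with a log2 difference of 0.15 (interval -0.29 to 0.60, adjusted p = 0.792). This value depended on single arrays: it was 0.0080 without Canton S B female 1, 0.0099 without Canton S B male 1, 0.07 without BG02257 male 1a and 0.30 without Canton S B female 2. Mip averaged 256.4 ± 81.1 in females and 306.5 ± 92.1 in males, with a log2 difference of -0.25 (interval -0.76 to 0.25, adjusted p = 0.663), which ran from -0.41 without Canton S B male 1 to -0.09 without Canton S B male 2 and was -0.38 without BG02257 male 1a. The sNPF Signal in females was 692.7 and 621.6 in BG02514, 706.1 and 651.2 in BG02257 and 686.6 and 521.2 in Canton S B. In males it was 747.1 and 528.5 in BG02514, 458.0 and 851.7 in BG02257 and 702.7 and 673.0 in Canton S B. The male arrays of BG02257 held both the lowest and the highest value of all 12. For sNPF the averages were 646.6 ± 68.8 in females and 660.2 ± 145 in males, a log2 difference of -0.0067 (interval -0.37 to 0.36, adjusted p = 0.994), and -0.16 without BG02257 male 1a. Over the 6 members the median sex difference was -0.11, with 2 above 0 and 4 below, beside a median of 0.001 over all tested probe sets.

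The sex difference of these genes was also compared between the lines. For none of the 6 did a sex difference that depends on line pass the test (adjusted p = 0.9997 for each, limma F test), against 0% of all probe sets called, and the unadjusted p of the members ran from 0.363 for Mip to 0.845 for Dh44. At an unadjusted p under 0.05 the test passed 0 members and 2.8% of all probe sets, and the analysis of variance passed 0 members and called 0 probe sets. Within BG02514 the 2 female and 2 male arrays did not overlap for 5 of 6 members, where 43.1% of all probe sets did not overlap. Pdf, NPF and Mip were lower in its females, with log2 differences of -0.47, -0.26 and -0.65, and Dh44 and Crz were higher, with 0.36 and 0.38. Within BG02257 this held for 1 of 6, NPF, at -0.52 (38% of all probe sets), with a limma p of 0.0471 and an adjusted p of 0.572. Within Canton S B it held for 0 of 6 (32% of all probe sets), where the limma test passed 0 members at an unadjusted p under 0.05. The smallest adjusted p of a member within a line was that of NPF. With 2 arrays a side, a gap between the sexes within a line is common among all probe sets, and the counts are a description.

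The arrays of one group differed from each other more for Crz and Mip than for most probe sets. The SD within groups, on the log2 scale, was 0.46 for Mip and 0.43 for Crz, at percentiles 84.1 and 80.5 of all tested probe sets, whose median was 0.28. It was 0.32 for sNPF, 0.24 for Dh44, 0.23 for Pdf and 0.23 for NPF. Between the 2 Canton S B females, Crz was 1.82-fold and Mip 1.61-fold higher in female 1. Between the 2 Canton S B males, Mip was 1.95-fold and Crz 1.80-fold lower in male 1. The Mip Signal behind these ratios was 403.9 and 250.2 in the Canton S B females and 200.7 and 391.4 in the males. In BG02514 it was 198.1 and 176.4 in females and 230.1 and 374.5 in males, and in BG02257 it was 229.4 and 280.6 in females and 240.2 and 402.2 in males. Each of the 3 male groups held 1 array near the top of the Mip range and 1 near the lower end.

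Crz and Mip differed in the same direction between the 2 arrays of every group, in 6 of 6 pairs. This pattern was chosen after the values were seen. Of all other tested probe sets, 4% had the direction of Crz in all 6 pairs, and of the 5 other members 1 did. The next closest pair of members, sNPF and Dh44, moved together in 5 of 6 pairs. In the Canton S B females all 6 members were higher in female 1, by 0.40 to 0.86 on the log2 scale with a median of 0.59, where 55.5% of all probe sets were higher and their median was 0.05. In that pair 9 of 14 neuron markers were higher with a median of 0.38, the glia markers had a median of -0.30, the 13 gut markers 1.88 and the 11 hemocyte markers -1.32. In the BG02257 males 5 of 6 members were lower in 1a, with a median of -0.43. Of all probe sets 43.9% were higher in 1a, and their median was -0.07. In that pair the neuron markers had a median of -0.54, the glia markers 0.54, the fat body markers 0.55, the gut markers 0.68 and the muscle markers 0.75. The largest gap there was that of sNPF, with a Signal of 458.0 in 1a and 851.7 in 1b, a 1.86-fold difference, and Pdf was the member that was higher in 1a. The part of these other tissues in the values of the members was not tested. In the other groups the members' medians were 0.16 in the BG02514 females, 0.03 in the BG02514 males, -0.26 in the BG02257 females and -0.21 in the Canton S B males. In the Canton S B males the neuron markers had a median of -0.43.

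**Figure D3:**
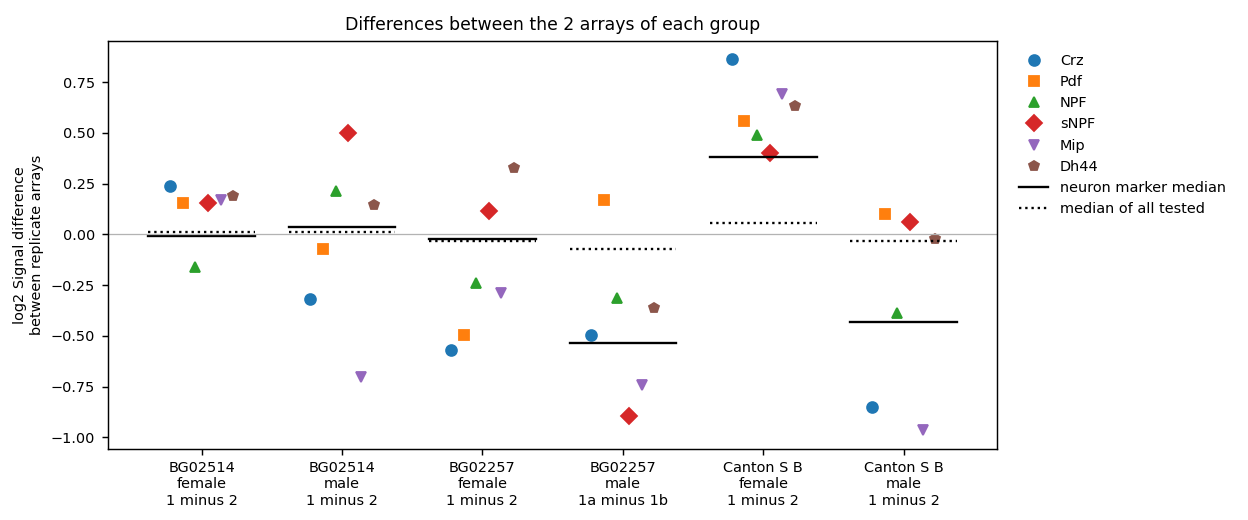
Log2 Signal difference between the 2 arrays of each of the 6 groups for the 6 tested neuropeptide genes (symbols), with the median of 14 neuron markers (solid line) and of all 8380 tested probe sets (dotted line). In the Canton S B females all 6 genes lie above 0, in the BG02257 males 5 of 6 lie below 0, and Crz and Mip lie on the same side of 0 in every group.

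The amn probe set had no usable level on these arrays. In BG02514 its Signal was 2.7 and 1.4 in females and 15.8 and 1.4 in males, and in BG02257 it was 2.1 and 1.7 in females and 1.6 and 1.8 in males. Canton S B had 7.6 and 0.8 in females and 4.6 and 1.1 in males. Its mean of 3.55 was at percentile 0.12 of all probe sets, below the tested minimum of 128.3, so no difference was computed. Detection calls were not among the values used, and a low Signal does not show that the gene was not transcribed.

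The receptors of these peptides were measured beside them. Of 13 listed receptors 9 had a single-symbol probe set and 8 were tested, and 0 of 8 were called by limma or by the analysis of variance in any of the 4 comparisons of sexes and lines. SPR, the receptor for sex peptide and Mip peptides, had the smallest adjusted p. It averaged 585.3 ± 87.2 in females and 421.7 ± 136 in males (± SD of 6 arrays each). This was a log2 difference of 0.52 (SE 0.19), with a limma p of 0.0208 and an adjusted p of 0.228, and of 0.33 without BG02257 male 1a (adjusted p = 0.314). SPR was the 1 receptor with an unadjusted limma p under 0.05 in these comparisons, and the analysis of variance had 0. Its ligand gene Mip had a difference of -0.25 in the same comparison. Pdfr, the PDF receptor, averaged 298.9 ± 29.4 in females and 331.4 ± 51.7 in males, and NPFR, the NPF receptor, 167 ± 55.8 in females and 173.1 ± 44.1 in males.

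Between lines, the receptor with the smallest unadjusted p was Dh44-R1. Dh44-R1, a receptor for Dh44, averaged 332.5 ± 40.9 in BG02257 and 240.3 ± 108 in Canton S B (SD, n = 4 each). The log2 difference was 0.55 (SE 0.26), with a limma p of 0.056 and an adjusted p of 0.999, and 0.62 without BG02257 male 1a. Dh44-R2 differed by -0.16 in that comparison, and by 0.12 without BG02257 male 1a. NPFR differed by 0.44 between BG02514 and Canton S B (adjusted p = 0.811). The sulfakinin receptor gene CCKLR-17D3 averaged 233.3 ± 72.9 in BG02257 and 324.6 ± 107 in Canton S B, a log2 difference of -0.49 (adjusted p = 0.999) that was -0.52 without BG02257 male 1a. The differences of sNPF-R, the sNPF receptor, and of TkR99D, a tachykinin receptor, were between -0.04 and 0.13 in the line comparisons, with adjusted p of 0.916 and above, and between -0.10 and 0.23 without BG02257 male 1a. TkR86C, which is also on the receptor list, had a Signal of 8.9 to 108.3 and was not tested.

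Other genes of peptide signalling were likewise not called. Of 26 other neuropeptide and peptide hormone genes with a probe set, 18 were tested. Of 18 genes listed for peptide processing and secretory granules, 16 were tested, among them CCT1, a chaperonin subunit gene. Neither list had a call in any of the 4 comparisons, by limma or by the analysis of variance. At an unadjusted limma p under 0.05, 5 of the other peptide genes and 4 of the processing genes passed between the sexes, and at most 3 and 2 passed between lines. Over all probe sets 15% passed between the sexes and 4.01% to 9.99% between lines. Adjusted p values reached 0.091 among the other peptide genes and 0.0687 among the processing genes, both between the sexes. The median log2 difference between females and males was -0.07 for the other peptide genes and -0.001 for the processing genes, beside 0.001 for all tested probe sets. For BG02514 against Canton S B the medians were 0.06 for the other peptide genes, 0.09 for the processing genes and -0.15 for the 6 members, beside -0.01 for all tested probe sets.

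**Figure D4:**
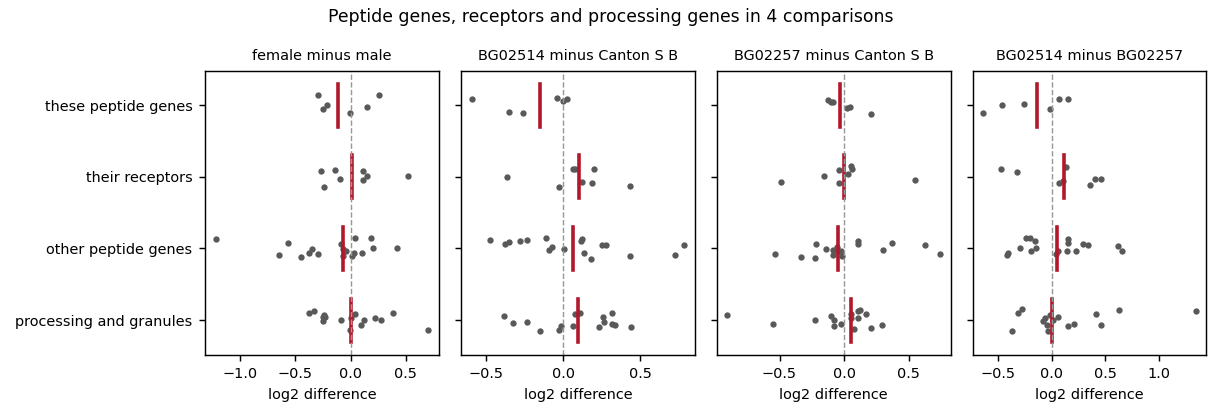
Log2 differences in Signal in 4 comparisons (points, with vertical scatter for visibility only), and the median of each list (red line). The lists are the 6 tested neuropeptide genes, 8 receptors, 18 other peptide genes and 16 genes listed for peptide processing and granules. Horizontal scales differ between panels. The medians lie within 0.15 of 0 in every panel.

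Among all tested genes, those whose profile over the 12 arrays was most like that of NPF, the member with the smallest adjusted p, were Tom70 (Pearson r = 0.914, Spearman's rho = 0.930), pdm3 (r = 0.902, rho = 0.951) and Trs23 (r = 0.896, rho = 0.874). They were the highest of 6777 genes searched by r of log2 Signal, and the 12 arrays share lines and sexes, so r is a description of these arrays. Among the members, the profiles of NPF and Mip had r = 0.612, those of Mip and Crz r = 0.602 and those of sNPF and Dh44 r = 0.579. The lowest of the 15 pairs was that of Pdf and Dh44, with r = -0.35. By the gene table, Pdf, NPF, Dh44 and Crz lie on chromosome arm 3R, sNPF on 2L, Mip on 3L and amn on X.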

How the data were processed

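Each value is an intensity that the authors deposited, the Signal of Affymetrix Microarray Suite version 5.0 per the labels. GCOS is named in the submitters' processing notes, and its version, the background settings and detection calls are not given in the sources. The deposited intensities had a trimmed mean (2% off each tail) of 500.09 to 500.10 on every array, so they were already scaled, which assumes like totals. The number of arrays limits the precision.

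Of 14010 probe sets, 44 controls were left out. Of the other 13966, 12442 had 1 symbol in the platform annotation, 327 several and 1197 none, and 12393 matched the RefSeq table (Release 6 plus ISO1 MT), used for names and arms only. The 8380 whose Signal averaged 128.3 or more over the arrays (percentile 40) were tested. Arrays were scaled to 1 trimmed mean, log2 was taken with no pseudocount, and 6 group means were fitted with limma 3.58.1 (R 4.3.3; eBayes with trend; 6 residual degrees of freedom; two-sided; Benjamini-Hochberg over 8380 at 0.05). This equals the line, sex and interaction model in the labels. Intervals are limma's, unadjusted. The fit was tested on simulated data.

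All members were named, receptors with values, other list genes where called (in the closing section), and the 3 genes most like the member with the smallest adjusted p. Members and lists were chosen with earlier results of these data known. Alternatives covered scaling, pseudocount, brightness filter, variance trend, analysis of variance, replicate block, each array left out, and 2 covariates.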

Additional observations from a re-analysis of the deposited data

Results flagged for a closer look

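Among 35 checks of the members' Signal within lines and within sexes, 1 array stood apart by Dixon's criterion, and chance flags about 1 in 20 such groups. The sNPF value of Canton S B female 2 was separated from the nearest of the other 3 Canton S B arrays by 0.856 of the group's log2 range, above the critical value for 4 samples. Its Signal was 521.2, and the other Canton S B arrays had 673.0 to 702.7.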

How the results depend on the processing

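The 24 member differences (6 genes, 4 comparisons) were recomputed under 24 settings, 12 of which left out 1 array, and 0 members were called in any of them by limma or the analysis of variance. The smallest adjusted p, 0.0868, was that of Crz in BG02514 against BG02257 with the neuron marker median as a covariate. That covariate and the GAPDH 3'/5' ratio were chosen after seeing the data. Signs turned in 45 of 562 values, over 12 of the differences. In the cases that follow the cause was not tested. With the neuron marker median, females minus males became 0.14 for sNPF and 0.028 for Mip, BG02514 minus Canton S B -0.14 for sNPF and -0.067 for Dh44, and BG02514 minus BG02257 -0.049 for NPF. With the GAPDH ratio, females minus males was 0.0039 for sNPF, BG02514 minus Canton S B 0.068 for NPF and BG02514 minus BG02257 0.018 for sNPF. With 1 array left out, females minus males ran from -0.16 to 0.14 for sNPF. BG02514 minus Canton S B ran from -0.16 to 0.085 for NPF, -0.12 to 0.13 for sNPF and -0.13 to 0.18 for Dh44. BG02257 minus Canton S B ran from -0.20 to 0.24 for sNPF, -0.17 to 0.26 for Crz, -0.33 to 0.15 for Mip, -0.23 to 0.019 for NPF and -0.28 to 0.032 for Dh44, and BG02514 minus BG02257 from -0.24 to 0.20 for sNPF and -0.013 to 0.14 for NPF.

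Replicate numbers gave no clear pairing of the samples: 1 of 10 pairs of groups had deviations that correlated above 0.1, with r from -0.24 to 0.27. The BG02257 males, both numbered 1, were left out of this check and share a block in the fit that follows. With 2 arrays a group, the check cannot show that no samples were handled together. With the replicate block the sNPF difference was 0.034 for females minus males, -0.041 for BG02257 minus Canton S B and 0.042 for BG02514 minus BG02257, no member was called, and the counts of all called probe sets were 2 for BG02257 against Canton S B and 16 for BG02514 against BG02257.

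The counts of all called probe sets, the background of the report, depended on the settings. For females against males, 238 were called, 164 higher and 74 lower, against 98 higher and 78 lower with quantile normalization, 145 with no brightness filter, 99 with no variance trend, 103 by the analysis of variance and 116 to 299 with 1 array left out. For BG02514 against Canton S B, 15 were called, against 5 with no trend, 3 by the analysis of variance, 25 with the neuron marker median and 4 to 20 with 1 array left out. For BG02257 against Canton S B, 8 were called, against 1 with no trend, 1 with only the groups compared, 1 by the analysis of variance, 3 with the BG02257 males averaged, 17 with the neuron marker median, 14 with the GAPDH ratio and 2 to 24 with 1 array left out. For BG02514 against BG02257, 28 were called, against 9 with no trend, 3 by the analysis of variance, 11 with the BG02257 males averaged, 64 with the neuron marker median and 2 to 90 with 1 array left out. A sex difference that depends on line was called for 0 to 9 probe sets with 1 array left out, the 9 without BG02257 male 1b. The stricter brightness filter left out Dh44 and Mip, and no member had a second probe set to compare.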

Other observations

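Between the sexes 15% of all probe sets had an unadjusted limma p under 0.05. Several peptide and peptide processing genes outside the set did too, and none passed adjustment. These genes were chosen after their values were seen. Trissin averaged 342.4 ± 41.9 in female heads and 468.5 ± 64.5 in male heads (± SD of 6 arrays each), a log2 difference of -0.45 (limma adjusted p = 0.091). Phm, which encodes the enzyme that begins peptide amidation, averaged 3048 ± 155 in females and 3833 ± 242 in males, a log2 difference of -0.33 (adjusted p = 0.0687). The difference was -1.22 for Lk, the leucokinin gene (adjusted p = 0.191). Lk averaged 127 ± 80.4 in females and 253.8 ± 68.6 in males. Its female mean lay under 128.3, the lowest mean Signal over all arrays that was tested. The size of its difference therefore depends on low female values. The differences were -0.65 for CCHa2 (adjusted p = 0.19), -0.56 for FMRFa (adjusted p = 0.203) and 0.42 for Proc, the proctolin gene (adjusted p = 0.181). On the list of Phm, they were -0.249 for 7B2 (adjusted p = 0.171), -0.378 for Nep1 (adjusted p = 0.245) and -0.245 for Nep4 (adjusted p = 0.312). Without BG02257 male 1a the difference was -0.47 for Trissin, -0.35 for Phm, -1.26 for Lk and -0.59 for CCHa2. It was then -0.59 for FMRFa, 0.36 for Proc, -0.26 for 7B2, -0.39 for Nep1 and -0.22 for Nep4.

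Akh, the adipokinetic hormone gene of the corpora cardiaca, had the widest gap between 2 arrays of one group among the tested peptide genes, in the Canton S B females. In BG02514 its Signal was 2412.5 and 1600.5 in females and 4011.5 and 3039.9 in males. In BG02257 it was 2452.2 and 6530.2 in females and 4068.5 and 641.1 in males, and in Canton S B 3726.5 and 203.8 in females and 1434.2 and 4880.7 in males. How much of the corpora cardiaca each sample held was not measured.

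Dh31 and ITP, which encode diuretic and ion transport peptides, also had the direction of Crz and Mip in all 6 pairs of arrays of one group. So did 5 of 16 genes on the processing and granule list (Fur2, Phm, 7B2, Nep1 and CCT1, a chaperonin subunit gene). So did 1 of 14 neuron markers (futsch) and 1 of 11 photoreceptor markers (trpl). None of the 8 receptors of the members, the 11 other peptide receptors, the 11 clock genes or the 10 glia markers did, beside 4% of all tested probe sets.

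Some marker genes of other head tissues were called by limma, beside 0 of the 6 neuropeptide genes. Limma called 0.179% of all probe sets for BG02514 against Canton S B, 0.0955% for BG02257 against Canton S B and 2.84% between the sexes. The analysis of variance called 0 of 11 photoreceptor markers for either line against Canton S B, and 4 of 14 fat body markers between the sexes. Of 11 photoreceptor markers, chp, which encodes the photoreceptor adhesion protein chaoptin, rose in BG02514 against Canton S B (log2 difference 1.79, limma adjusted p = 0.0148). It was also higher in BG02257 than in Canton S B (1.73, adjusted p = 0.0251), a call that was lost without BG02257 male 1a (1.68, adjusted p = 0.0954). The phototransduction scaffold gene inaD was lower in BG02514 than in Canton S B (-0.85, adjusted p = 0.0278). Both comparisons share the Canton S B arrays. Of 14 fat body markers, 4 were higher in females than in males (Yp1 by 7.33, Yp2 by 7.29, Yp3 by 5.31 and fit by 3.31 on the log2 scale) and 3 were lower (Cyp4d21 by -3.26, sxe2 by -2.93 and Obp99b by -4.48). The largest of these 7 adjusted p values was 0.00522, that of fit, and all 7 were also called without BG02257 male 1a.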
